A study of Mus musculus with 16 samples.

Results

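The genes described here are the axon guidance ligands and receptors of the adult mouse brain, chosen by gene symbol alone: every row named as a numbered semaphorin (Sema), a plexin (Plxn), an A or B ephrin (Efna, Efnb), an A or B Eph receptor (Epha, Ephb), a numbered Slit, a Robo or an Unc5 receptor, together with Nrp1, Nrp2, Ntn1, Ntn4, Ntng1, Ntng2 and Dcc. These symbols took 72 of the 24060 gene rows, of which 69 encode guidance proteins. The other 3, Unc50, Unc5cl and the antisense transcript Plxna4os1, only share the opening letters of a symbol, and the tested 2 of them, Unc50 and Plxna4os1, stay in the counts of guidance genes given below. Of the 72 rows, 60 reached at least 1 FPKM (mapped fragments corrected for transcript length and for the depth of the library) in at least 4 of the 16 libraries and were tested. The 12 that did not were Efna1, Efna4, Epha1, Epha2, Epha8, Robo4, Sema3b, Sema3f, Sema3g, Sema4c, Sema6c and Unc5cl. The filter lay between Robo4, which reached 1 FPKM in 3 libraries, and Ephb2, Sema3a and Slit2, which reached it in 4. Ephb2 and Slit2 reached it in the hippocampal inputs only and Sema3a in the striatal inputs only, and a further 6, Efna5, Epha10, Ntng1, Sema3c, Sema3d and Unc5d, reached it in inputs but in no IP, and Ephb4 in IPs but in no input. These 10 were tested only because 1 side was high, which favours a difference in that direction. By region, Ephb2, Slit2 and Nrp2 reached it in hippocampal libraries only, and Sema3a and Ntn1 in striatal ones only, which likewise favours a regional difference.

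Whole hippocampus and whole striatum were taken from 4 adult mice, male and female, at postnatal day 63, and which animal was of which sex is not given in the sources used here. All 4 mice carried 1 copy of an Aldh1l1-creERT2 transgene and 1 copy of the Ribotag allele on an FVB strain crossed back to C57/Bl6N, so no group lacked either. The transgene places inducible Cre recombinase under the promoter of the astrocyte gene Aldh1l1, and Cre switches the Ribotag allele to a hemagglutinin (HA) tagged form of the ribosomal protein Rpl22, so that ribosomes and the RNA on them can be pulled from a whole-tissue lysate with an antibody to HA. How Cre was induced is not given in the sources used here. Each animal (970, 971, 974 and 977) gave 4 libraries, one from the cleared lysate (input) and one from the HA immunoprecipitate (IP) of each region, which makes 4 groups of 4. Values listed in fours below follow that order of animals, are FPKM divided by a scaling factor for each library (scaled FPKM), and are summarised as mean ± SD over the 4 animals.

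Guidance proteins steer growing axons and later shape synapses and the contacts between glia and neurons. Semaphorins signal through plexins, with neuropilins as co-receptors for the secreted class 3 members, ephrins on one cell bind Eph receptors on its neighbour, Slits act through Robos, and netrins act through Dcc and the Unc5 receptors. In the adult brain many of these genes are known from neurons, while B plexins, class 4 semaphorins and B ephrin signalling have also been described in glia.

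Sequencing depth, estimated from the smallest steps between FPKM values, was 9010000 to 12200000 fragments in the hippocampal inputs, 18850000 to 22550000 in the hippocampal IPs, 4140000 to 8930000 in the striatal inputs and 13920000 to 21700000 in the striatal IPs. The striatal inputs of animals 971 and 974 were the shallowest libraries, at 5770000 and 4140000, and stood apart from the other striatal inputs in several guidance genes. Aldh1l1, the gene whose promoter drives Cre, read 4.53 ± 1.35 in hippocampal input and 110 ± 11.3 in hippocampal IP, and 4.29 ± 1.06 and 105 ± 27.6 in striatum. Rpl22 read 3.92 ± 0.0442 and 3.42 ± 0.252 in hippocampus and 3.08 ± 0.492 and 3.12 ± 0.211 in striatum, a level that does not check the tag. All 10 astrocyte markers were higher in IP than in input in both regions. Of 12 pan-neuronal markers, 12 were lower in hippocampal IP and 11 in striatal IP. In hippocampus their summed level ran from 3430 to 3530 in the inputs and from 203 to 338 in the IPs. In striatum the sums ran from 2020 to 2850 and from 195 to 421, and no marker was at 0. Within each region the IPs of animals 974 and 977 held the larger sums (338 and 280 in hippocampus, 421 and 337 in striatum) and those of 970 and 971 the smaller (203 and 206, 195 and 212). In whole tissue and in IP alike, fewer cells of a type and less RNA per cell cannot be told apart.

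The first question the design poses is which of these genes astrocyte ribosomes carried at a higher or lower level than the whole tissue. In hippocampus 15 of the 60 tested guidance genes were higher in IP than in input (25.0%) and 36 were lower (60%), against 30.1% and 35.5% of all 13470 genes tested, of which 65.5% were called in either direction. Among the 50 guidance genes that reached 1 FPKM in both an input and an IP, a count added after seeing the data, 14 were higher (28.0%) and 28 lower (56.0%), against 31% and 33.1% of the 12485 such genes in all. In striatum 19 were higher (31.7%) and 24 lower (40%), against 33.5% and 31.4% of all genes, of which 65.0% were called. Among the same 50 genes the striatal counts were 18 and 18 (36% each), against 34.5% and 29.8%. Without the striatal inputs of 971 and 974 the striatal counts over all 60 were 17 and 26. The median log2 fold change of the tested guidance genes was -0.67 in hippocampus and -0.12 in striatum, beside -0.10 and 0.01 over all genes. All fold changes are on the log2(scaled FPKM + 1) scale, which understates those of low genes, and all adjusted p-values are from limma with Benjamini-Hochberg adjustment over all genes, called under 0.05.

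Both regions called 14 guidance genes higher in IP (23.3%, against 25.2% of all genes) and 21 lower (35.0%, against 25.1%). Of the 21, Efna5, Ntng1, Sema3c, Sema3d and Unc5d reached 1 FPKM in inputs only, and of the 14 Ephb4 in IPs only. The filter favoured these calls, and the joint shares without such genes were not counted. The 14 were the plexins Plxna3, Plxnb1 and Plxnb2, the semaphorins Sema4a, Sema4b, Sema4d, Sema4g, Sema6a and Sema6d, the Eph receptors Ephb1, Ephb3 and Ephb4, the netrin Ntn4 and the Slit receptor Robo1. A further 4, Nrp1, Ntng2, Plxna1 and Plxnc1, were lower in hippocampal and higher in striatal IP (6.67%, against 0.824% of all genes). The striatal call of Ntng2 was lost without the striatal inputs of 971 and 974 (log2 0.41 ± 0.26 (SE), adjusted p = 0.188) and under 3 other alternatives, and that of Plxnc1 under 5 alternatives, the smallest value being 0.04 with no scaling. The hippocampal call of Plxnc1 was lost without 970 and without 974 (adjusted p up to 0.0615), and that of Nrp1 under 3 alternatives. Ntng2 also overlaps 6530402F18Rik on the same strand, and the effect on its values was not tested. Efnb1, Ephb6, Nrp2, Plxnb3 and Unc50 passed in neither region. With no scaling of the libraries the median of all genes moved to -0.51 in hippocampus and -0.25 in striatum, the split of all calls went from 45.9% to 26.0% higher in hippocampus and from 51.6% to 36.1% in striatum, and the hippocampal calls of Plxna3, Robo1, Sema4d, Sema4g and Sema5b were lost, which left 10 higher and 41 lower there.

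**Figure D1:**
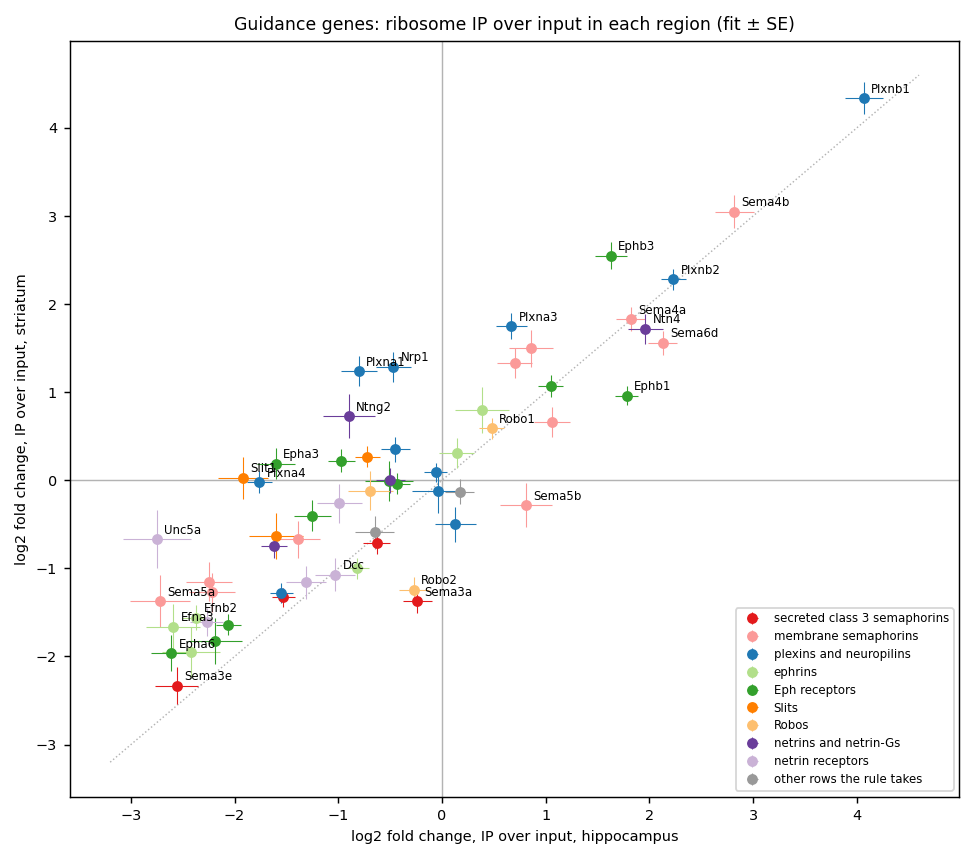
Log2 fold change of IP over input in hippocampus (x) and striatum (y) for the 60 tested genes, coloured by role, with bars of 1 SE from the fit and the dotted line marking equal change. Plxnb1 lies farthest to the upper right at 4.07 and 4.34, Sema3e is the lowest in striatum at -2.33, and Plxna1, Nrp1 and Ntng2 lie above 0 in striatum and below 0 in hippocampus.

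The plot of both regions shows that the genes farthest from 0 lay on the same side of 0 in each.

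To set the genes at both ends of that plot beside their upstream sequence, the 200 bases lying 250 to 51 bases before the RefSeq start (GRCm38.p6, 5′ to 3′ on the gene's own strand) are given for Plxnb1 and Sema4b, higher in both IPs, and for Sema3e and Epha6, lower in both, with capitals marking a match to TTGGCA on either strand.
Plxnb1 (chr9:109095186-109095385, + strand): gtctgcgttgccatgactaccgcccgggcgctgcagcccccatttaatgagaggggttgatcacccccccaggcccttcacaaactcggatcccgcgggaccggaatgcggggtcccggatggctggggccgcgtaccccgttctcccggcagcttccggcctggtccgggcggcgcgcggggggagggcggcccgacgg
Sema4b (chr7:80186620-80186819, + strand): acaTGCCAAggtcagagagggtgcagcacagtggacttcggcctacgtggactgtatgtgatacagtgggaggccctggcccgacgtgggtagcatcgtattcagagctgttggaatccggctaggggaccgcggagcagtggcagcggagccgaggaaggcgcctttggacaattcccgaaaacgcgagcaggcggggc
Sema3e (chr5:14025026-14025225, + strand): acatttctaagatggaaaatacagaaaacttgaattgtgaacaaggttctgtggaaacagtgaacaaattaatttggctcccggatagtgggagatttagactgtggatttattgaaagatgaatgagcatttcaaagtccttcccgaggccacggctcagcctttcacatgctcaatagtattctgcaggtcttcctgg
Epha6 (chr16:60605582-60605781, - strand): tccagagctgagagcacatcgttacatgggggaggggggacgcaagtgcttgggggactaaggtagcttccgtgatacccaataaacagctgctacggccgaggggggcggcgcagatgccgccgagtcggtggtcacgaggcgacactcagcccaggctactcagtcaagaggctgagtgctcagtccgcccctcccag
These windows held 23, 15, 3 and 13 CG dinucleotides, in the order given. The motif TTGGCA, part of the site of nuclear factor I proteins, was matched on either strand in 10.5% of 27025 such windows in the RefSeq table, in 4 of the 61 guidance genes found there, in 1 of 13 higher in both IPs and in 0 of 17 lower in both. ACAAAG, a core letter string of SOX sites, was matched in 13.6% of all windows, in 6 of the 61, and in 0 of 13 and 1 of 17. A match describes letters in a window only.

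Of 11 tested membrane semaphorins 7 were higher in hippocampal IP (63.6%) and 6 in striatal IP (54.5%), and 4 were lower in each (36.4%). Over all genes 30.1% and 33.5% were higher and 35.5% and 31.4% lower. Of 4 tested class 3 semaphorins, which are secreted, none was higher in either IP and 3 and 4 were lower. Of these 4, all but Sema3e reached 1 FPKM in inputs only, and the difference between the classes was not tested. Class 4 had 4 higher members and 1 lower, Sema4f, in both regions.

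Sema4b, a membrane semaphorin, was the highest semaphorin in both IPs. It read 5.5, 5.13, 3.49 and 5.13 in hippocampal input and 48.6, 44, 31.5 and 36.8 in hippocampal IP. In striatum it read 3.5, 1.98, 2.08 and 2.41 in input and 33.6, 35.1, 20.5 and 23.6 in IP. Every IP exceeded every input, by 8.36-fold in the hippocampal means (log2 2.82 ± 0.19, adjusted p = 1.94e-09) and 11.3-fold in the striatal means (3.05 ± 0.19, adjusted p = 1.1e-09). Sema6d, a class 6 semaphorin that binds Plxna1, read 3.44, 3.69, 3.67 and 3.25 in hippocampal input and 20.1, 21.3, 17.1 and 16.7 in IP. In striatum Sema6d read 3.12, 3.6, 2.61 and 3.06 in input and 12.6, 13.5, 8.48 and 10.3 in IP. Neither region overlapped between IP and input, and the log2 changes were 2.13 ± 0.14 (adjusted p = 8.16e-10) and 1.56 ± 0.14 (adjusted p = 3.82e-08). Sema4a went from 1.18 ± 0.148 to 6.67 ± 0.418 in hippocampus and from 0.903 ± 0.305 to 5.77 ± 1 in striatum. Sema4d, a ligand of Plxnb1, went from 3.77 ± 0.216 to 7.69 ± 0.761 and from 2.28 ± 1.18 to 7.82 ± 0.969. Sema6a, a second class 6 semaphorin, went from 7.28 ± 0.253 to 16.4 ± 2.61 and from 12 ± 3.99 to 19 ± 1.72.

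Of the semaphorins lower in IP, Sema5a had the lowest log2 change in hippocampus, where by the ratio of means Sema3e lay lower, and Sema3e the lowest in striatum by both. Sema5a, which carries thrombospondin repeats, read 31.2, 27.5, 38 and 22.8 in hippocampal input and 3.19, 3.17, 5.17 and 3.26 in IP, an 8.09-fold lower mean (log2 -2.72 ± 0.29, adjusted p = 4.47e-07). Striatal input held less of it and varied more, at 3.95, 6.86, 16.3 and 4.61, with 974 far above the rest, and striatal IP read 2.61, 1.89, 1.81 and 1.89 (log2 -1.37 ± 0.29, adjusted p = 0.000663). Both regions kept all IPs under all inputs. Its paralog Sema5b lay the other way in hippocampus, from 5.71 ± 1.04 to 10.7 ± 1.51 (log2 0.81 ± 0.25, adjusted p = 0.00887). Sema5b did not pass in striatum (log2 -0.28 ± 0.25, adjusted p = 0.343).

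Sema3e, a secreted semaphorin that binds Plxnd1, read 10.9, 10.9, 10.5 and 9.47 in hippocampal input and 0.586, 0.701, 1.72 and 0.954 in IP. In striatum Sema3e read 7.18, 10.2, 14.6 and 7.82 in input and 0.569, 0.974, 1.47 and 1.59 in IP. The IP means were 10.6-fold and 8.64-fold lower with no overlap (log2 -2.56 ± 0.21, adjusted p = 1.99e-08, and -2.33 ± 0.21, adjusted p = 7.58e-08). Sema3c and Sema3d were also lower in both regions, and Sema3a was lower in striatum (2.41 ± 0.743 in input, 0.298 ± 0.137 in IP) and reached 1 FPKM in the striatal inputs only. Sema7a, a GPI-anchored semaphorin that binds Plxnc1, went from 15.2 ± 0.822 to 2.42 ± 0.504 in hippocampus and from 13.2 ± 3.43 to 5.52 ± 2.06 in striatum.

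Among the receptors of semaphorins, Plxnb1 stood first. Plxnb1 (chr9:109095389-109119917, + strand) read 9.66, 8.4, 7.14 and 8.32 in hippocampal input and 172, 168, 138 and 149 in hippocampal IP. Striatal input held 6.61, 5.61, 4.27 and 7.96, and striatal IP 161, 178, 105 and 130. No IP came near any input in either region. The means differed by 18.7-fold in hippocampus (log2 4.07 ± 0.18, adjusted p = 1.9e-11) and 23.4-fold in striatum (4.34 ± 0.18, adjusted p = 2.52e-11). By mean level Plxnb1 ranked 205 of 24060 rows in hippocampal IP and 197 in striatal IP, against 5014 and 6097 in the inputs. Of the summed level of the 69 genes that encode guidance proteins, it made up 33.1 ± 2.21% in hippocampal IP and 31.6 ± 4.41% in striatal IP. In the inputs its share was 1.47 ± 0.138% and 1.61 ± 0.47%.

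Plxnb2, a second receptor for class 4 semaphorins, was lower in level and changed in the same direction. It read 1.38, 1.44, 1.49 and 1.36 in hippocampal input and 11.1, 10.6, 9.66 and 10.1 in IP. In striatum Plxnb2 read 1.15, 0.937, 0.907 and 1.21 in input and 10.7, 9.85, 6.79 and 8.89 in IP. All IPs lay above all inputs (log2 2.23 ± 0.12, adjusted p = 1.35e-10, and 2.28 ± 0.12, adjusted p = 1.73e-10). The remaining B plexin, Plxnb3, read 1.48 ± 0.0474 and 1.42 ± 0.213 in hippocampus and 1.98 ± 1.05 and 1.73 ± 0.945 in striatum and passed in neither (adjusted p = 0.894 and 0.686).

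The A plexins, which transduce class 3 signals with neuropilins and class 6 signals without them, were split. Plxna3 was higher in both IPs (2.02 ± 0.25 to 3.77 ± 0.193 in hippocampus, 0.565 ± 0.345 to 4.24 ± 0.864 in striatum). Plxna2 was lower in both (17.3 ± 0.859 to 5.25 ± 0.507, and 21.4 ± 2.6 to 8.2 ± 0.977). Plxna4 was lower in hippocampus (34.6 ± 1.44 to 9.59 ± 1.62) and read 8.84 ± 0.985 and 8.72 ± 0.765 in striatum (adjusted p = 0.914). Plxna1 and Nrp1 differed in sign between the regions and are given with the regional comparison. Plxnd1 was lower in striatal IP at an adjusted p of 0.0385, with the groups overlapping, and this call was lost under 5 alternatives, among them without 970, without 971 and without 977 (largest adjusted p = 0.314).

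**Figure D2:**
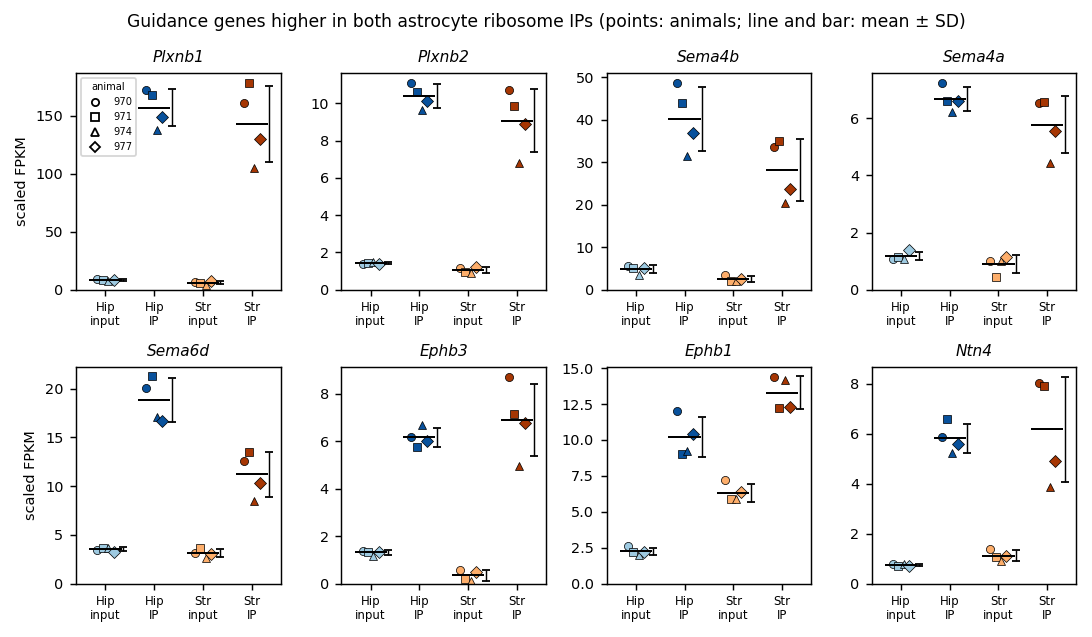
Scaled FPKM of 8 guidance genes higher in both IPs, by group (Hip, hippocampus; Str, striatum), with 1 point per animal, the mean as a line and the SD as a bar. In every panel all IP points lie above all input points of the same region, from 105 to 178 for Plxnb1 in striatal IP against 4.27 to 7.96 in striatal input.

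The per-library plot of these genes also shows that in striatal IP animal 974 was the lowest for 7 of the 8 panels, the exception being Ephb1.

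All 6 tested A-class Eph receptors were lower in hippocampal IP, against 35.5% of all genes, though Epha10 reached 1 FPKM in inputs only. In striatal IP Epha4, Epha6 and Epha7 were lower, against 31.4% of all genes, while Epha3, Epha5 and Epha10 did not pass. Of the 5 tested B-class receptors Ephb1, Ephb3 and Ephb4 were higher in both regions, as were 25.2% of all genes, and Ephb6 passed in neither. Ephb4 reached 1 FPKM in IPs only. Ephb2 was called lower in hippocampus, but it entered the test through the hippocampal inputs alone (1.56 to 1.77, and under 1 in every other library). The difference between the classes was not tested. Both are classes of the receptor tyrosine kinase family, A receptors binding mainly GPI-anchored A ephrins and B receptors mainly transmembrane B ephrins.

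Ephb3 had the largest striatal change of any Eph receptor. It read 1.37, 1.35, 1.17 and 1.33 in hippocampal input and 6.2, 5.74, 6.7 and 6.02 in IP. In striatum Ephb3 read 0.58, 0.193, 0.117 and 0.496 in input and 8.7, 7.15, 4.97 and 6.77 in IP. The groups were far apart in both regions (log2 1.63 ± 0.15, adjusted p = 4.44e-08, and 2.55 ± 0.15, adjusted p = 3.86e-10). Ephb1 read 2.61, 2.2, 2.01 and 2.19 in hippocampal input and 12, 9.04, 9.26 and 10.4 in IP, and in striatum 7.18, 5.86, 5.88 and 6.4 in input and 14.4, 12.2, 14.2 and 12.3 in IP. IP and input did not overlap for Ephb1 in either region (log2 1.78 ± 0.11, adjusted p = 8.13e-10, and 0.96 ± 0.11, adjusted p = 1.39e-06). Ephb4 was low throughout, at 0.271 ± 0.0789 and 0.165 ± 0.0807 in the inputs and 1.63 ± 0.24 and 1.46 ± 0.364 in the IPs, and passed in both. Ephb6, which lacks kinase activity, did not pass (adjusted p = 0.0648 and 0.962).

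Epha6 was the A-class receptor with the largest change. It read 35, 32.7, 32.1 and 29.6 in hippocampal input and 4, 3.2, 6.08 and 5.02 in IP, with 974 and 977 the higher IPs. Striatal values were 10.4, 12.9, 14.9 and 10.4 in input and 1.71, 1.51, 3.63 and 2.92 in IP, with the same 2 animals higher. No IP reached the lowest input (log2 -2.61 ± 0.2, adjusted p = 6.38e-09, and -1.96 ± 0.2, adjusted p = 2.27e-07). Epha7 read 16.9, 17.5, 17.4 and 14.9 in hippocampal input and 1.91, 2.66, 4.16 and 3.11 in IP, and in striatum 7.82, 12.9, 19.7 and 6.84 in input and 1.69, 1.88, 3.44 and 2.77 in IP. The IPs of Epha7 stayed under the inputs in both regions (log2 -2.19 ± 0.26 and -1.82 ± 0.26). Epha4, the highest guidance gene in both inputs at 80.5 ± 9.78 and 49.5 ± 5.98, kept 18.5 ± 1.78 and 15.1 ± 1.04 in the IPs and was lower in both (log2 -2.06 ± 0.12, adjusted p = 2.35e-10, and -1.64 ± 0.12, adjusted p = 4.11e-09).

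**Figure D3:**
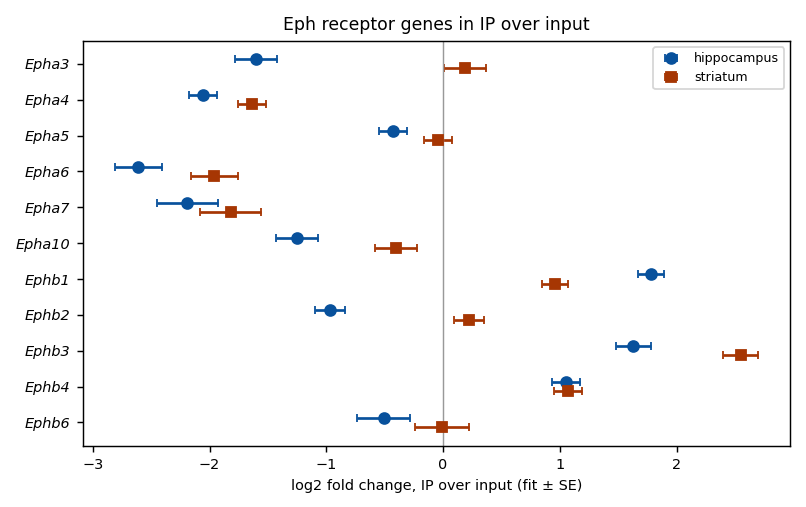
Log2 fold change of IP over input with 1 SE for the 11 tested Eph receptor genes in hippocampus (circles) and striatum (squares). All 6 A-class receptors lie below 0 in hippocampus, from -0.43 for Epha5 to -2.61 for Epha6, whereas Ephb1, Ephb3 and Ephb4 lie above 0 in both regions.

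The plot of Eph receptors shows the striatal point to the right of the hippocampal one for every A-class receptor, and to the left only for Ephb1.

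The ephrins, ligands of these receptors, were lower or did not pass in hippocampal IP. Of 6 tested, 4 were lower in each region (Efna3, Efna5, Efnb2 and Efnb3). That is 66.7%, against 35.5% of all genes in hippocampus and 31.4% in striatum, and Efna5 reached 1 FPKM in inputs only. Efna3 read 11.3, 13.2, 7.2 and 13.3 in hippocampal input and 0.598, 1.14, 0.833 and 1.51 in IP, and in striatum 6.77, 3, 2.37 and 6.78 in input and 0.442, 0.713, 0.836 and 0.787 in IP. Efna3 was thus 11-fold and 6.81-fold lower by the means, without overlap (log2 -2.59 ± 0.26, adjusted p = 1.83e-07, and -1.66 ± 0.26, adjusted p = 3.19e-05). Efnb3 read 24.4, 21.1, 22.4 and 21 in hippocampal input and 3.33, 2.14, 5.17 and 3.2 in IP, and in striatum 23.9, 17.5, 12.9 and 23.6 in input and 2.48, 2.55, 7.26 and 5.98 in IP. All 8 IPs of Efnb3 were under all inputs (log2 -2.42 ± 0.28, adjusted p = 8.56e-07, and -1.95 ± 0.28, adjusted p = 1.13e-05), and in striatum 974 and 977 again held the higher IPs. Efna2 was higher in striatal IP (adjusted p = 0.0123), a call that was lost without the striatal inputs of 971 and 974, where it read 0.15 and 0.113 against 2.02 and 1.2 in the other 2 (adjusted p up to 0.357 over the alternatives).

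Of the Slits, Slit1 and Slit3 were lower in hippocampal IP, and Slit3 was also lower in striatal IP (adjusted p = 0.0445, lost under 6 alternatives). Slit2 was called lower in hippocampal IP as well (1.72 to 2.19 in input, 0.604 to 0.929 in IP), but those inputs were the only libraries in which it reached 1 FPKM. Slit3 read 4.19, 2.82, 7.3 and 6.69 in hippocampal IP and 5.47, 5.56, 13.5 and 11 in striatal IP, so that 974 and 977 were higher in both, as were their pan-neuronal sums. The part of neuronal RNA in these values was not tested. Robo1, a Slit receptor, was among the highest guidance genes of the IPs, at 23.5 ± 3.16 in hippocampus and 29.1 ± 4.49 in striatum against 16.4 ± 0.43 and 18.9 ± 1.96 in the inputs (log2 0.48 ± 0.12, adjusted p = 0.00255, and 0.59 ± 0.12, adjusted p = 0.00051). With no scaling its hippocampal change was -0.05, on the other side of 0 (adjusted p = 0.583).

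Of the 9 tested netrins, netrin-Gs and netrin receptors, 8 were lower in hippocampal IP and Ntn4 was higher, against 35.5% lower and 30.1% higher of all genes. In striatal IP 4 were lower (Ntng1, Dcc, Unc5c and Unc5d), Ntn4 and Ntng2 were higher, and Ntn1, Unc5a and Unc5b did not pass. Of all genes 31.4% were lower and 33.5% higher there. Ntng1 and Unc5d reached 1 FPKM in inputs only, which favours a lower call. Ntn4, a netrin of basement membranes, went from 0.744 ± 0.0505 to 5.81 ± 0.58 in hippocampus (log2 1.96 ± 0.17, adjusted p = 2.85e-08) and from 1.12 ± 0.206 to 6.18 ± 2.1 in striatum (1.72 ± 0.17, adjusted p = 1.72e-07). Ntn1, the classical guidance netrin, was lower in hippocampal IP (0.726 ± 0.0703 to 0.22 ± 0.0444) and read 1.46 ± 0.184 and 1.51 ± 0.54 in striatum (adjusted p = 0.991). Unc5a, which is a repulsive netrin receptor, read 42.9, 40.6, 37 and 42.8 in hippocampal input and 3.86, 4.12, 6.58 and 6.76 in IP (log2 -2.75 ± 0.33, adjusted p = 1.33e-06). In striatum Unc5a read 14.4, 8.04, 3.35 and 14.1 in input, with 971 and 974 apart from the others, and 3.21, 5.18, 8.05 and 5.07 in IP. The striatal groups overlapped and did not pass (log2 -0.67 ± 0.33, adjusted p = 0.0833), whereas without the 2 shallow inputs the change was -1.31 ± 0.25 (adjusted p = 0.000336). Unc5a overlaps Hk3 on the opposite strand and the library kit is not stated to mark strand, so reads of the 2 genes cannot be told apart.

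Genes that act with these families were taken as 2 further lists. Of 27 tested other guidance ligands and receptors, 9 were higher and 15 lower in hippocampal IP (33.3% and 55.6%, against 30.1% and 35.5% of all genes). In striatal IP they were 9 and 12 (33.3% and 44.4%, against 33.5% and 31.4%), so that the higher shares lay near the background. Ptch1, a hedgehog receptor, went from 10.7 ± 0.536 to 106 ± 12.4 in hippocampus and from 15.3 ± 3.52 to 87.6 ± 23.7 in striatum (log2 3.19 ± 0.19 and 2.42 ± 0.19). L1cam, an axonal adhesion molecule, went the other way, from 31.4 ± 2.06 to 2.44 ± 1.14 in hippocampus (log2 -3.3 ± 0.26). Of 50 tested cytoplasmic effectors, 16 were higher and 19 lower in hippocampal IP (32.0% and 38.0%), and in striatal IP the counts were 20 and 16 (40.0% and 32.0%). In hippocampus both shares, and in striatum the lower one, were near those of all genes. Dock1, which activates Rac, and Farp1, a guanine nucleotide exchange factor, were higher in both IPs (log2 3.17 ± 0.13 and 3.03 ± 0.17 in hippocampus, 2.73 ± 0.13 and 3 ± 0.17 in striatum), while Chn1, a Rac inactivator downstream of Epha4, was lower in both (log2 -2.89 ± 0.1 and -2.87 ± 0.1).

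The second question is how the guidance genes of astrocyte ribosomes differed between striatum and hippocampus. Between the 2 IPs 9 of 60 were higher in striatum and 9 lower (15% each), against 7.18% and 5.38% of all genes (12.6% in either direction), and 42 did not pass. The medians were -0.04 for the guidance genes and -0.02 over all genes. The 9 higher were Efnb2, Dcc, Ntn1, Sema7a, Unc5b, Plxnd1, Plxna2, Efna5 and Ephb1, and the 9 lower Nrp2, Slit1, Epha5, Epha6, Sema6d, Plxna4os1, Plxna1, Nrp1 and Unc5c. Plxna4os1 lies within the span of Plxna4 on the opposite strand, and the kit is not stated to mark strand. Reads from the stretch of Plxna4os1 can therefore not be assigned to 1 of the 2 genes by strand. Without the rows that encode no guidance protein 9 of 58 were higher and 8 lower. Of these 18 calls, 7 held under all alternatives that tested the gene, those of Dcc, Efnb2, Epha5, Nrp2, Ntn1, Plxna2 and Sema6d. Among them, Nrp2 and Ntn1 reached 1 FPKM only in the region in which they were high. The counts were 4 higher and 5 lower without 970, 5 and 4 without 971, 8 and 6 without 974, and 6 and 3 without 977. With no scaling they were 8 and 5, so that the share of higher calls went from 50.0% to 61.5% of the guidance genes, and from 57.2% to 69.4% over all genes.

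The inputs differed more. Between striatal and hippocampal input 10 guidance genes were higher and 29 lower (16.7% and 48.3%). Of all genes 14.5% were higher and 21.8% lower (36.3% in either direction). Without the striatal inputs of 971 and 974 the guidance counts were 9 and 24. The filter favoured the lower calls of Ephb2, Slit2 and Nrp2 and the higher calls of Sema3a and Ntn1. Without Ephb2, Slit2 and Sema3a, which reached 1 FPKM in 1 group only, 9 of 57 were higher and 27 lower. A matching share of all genes was not counted. Of the 9 genes higher in striatal IP 6 were also higher in striatal input, and of the 9 lower 8 were also lower there. The same overlap was not counted over all genes, so it cannot be read as particular to guidance genes. The 2 comparisons share no library, but each animal gave to both. Of 9 striatal projection neuron markers 9 were higher in striatal input and 8 in striatal IP, with sums of 36.4 to 39.2 and 1910 to 2280 in the hippocampal and striatal inputs and of 71.4 to 88 and 206 to 356 in the IPs. Of 9 hippocampal principal neuron markers 7 were lower in striatal input and 5 in striatal IP, with sums of 686 to 785 and 273 to 341 in the inputs and of 83.6 to 115 and 59.4 to 75 in the IPs. Astrocyte markers were not level between the IPs: of 10, 5 were lower in striatal IP, 0 were higher and 5 did not pass. Their sums were 10500 to 14400 in hippocampal and 6590 to 12000 in striatal IP. Of 9 oligodendrocyte markers 5 were higher in striatal IP and 0 lower, with sums of 87.8 to 92 and 92.7 to 139. The part of neuronal, oligodendrocyte or astrocyte RNA in the differences between the IPs was not tested.

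Efnb2, a transmembrane ephrin that also binds Epha4, gave the largest log2 difference between the IPs. By the ratio of means, which has no pseudocount, Nrp2 (7.22-fold) and Ntn1 (6.85-fold) among the called genes were farther apart. Both reached 1 FPKM in 1 region only. Efnb2 read 1.76, 1.14, 2.04 and 1.98 in hippocampal IP and 7.28, 6.48, 9.7 and 8.45 in striatal IP, against 14.9, 11.1, 12.3 and 13.7 and 24, 25.2, 24.1 and 27.8 in the inputs. The IPs were 4.61-fold apart by their means without overlap (log2 1.72 ± 0.14, adjusted p = 4.33e-07) and the inputs 1.94-fold (0.91 ± 0.14, adjusted p = 8.57e-05). Dcc, the attractive netrin receptor, read 2.62, 2.89, 3.38 and 2.95 in hippocampal IP and 4.9, 7.31, 9.14 and 7.2 in striatal IP, and in the inputs 6.92, 6.76, 8.18 and 6.48 and then 12.4, 18.6, 23 and 11.6. Dcc was higher in striatum in IP (log2 1.02 ± 0.19, adjusted p = 0.00176) and in input (1.06 ± 0.19, adjusted p = 0.000456), again without overlap. Ntn1, its ligand, read 0.17 to 0.269 in hippocampal IP and 0.866 to 2.1 in striatal IP (log2 1.01 ± 0.14, adjusted p = 8.48e-05). No hippocampal library reached 1 FPKM for Ntn1, so the filter favoured a call in this direction. Plxna2 read 5.15, 4.67, 5.9 and 5.3 in hippocampal IP and 7.13, 8.09, 9.5 and 8.1 in striatal IP, with the ranges apart (log2 0.55 ± 0.11, adjusted p = 0.00281), while its inputs overlapped at 17.7, 18.2, 17 and 16.3 and 20.9, 22.9, 23.7 and 17.9. Sema7a read 2.74, 2.07, 2.95 and 1.91 in hippocampal IP and 5.82, 7.87, 5.54 and 2.86 in striatal IP, where 977 fell inside the hippocampal range. The call of Sema7a (log2 0.88 ± 0.22, adjusted p = 0.0114) was lost without 970 (adjusted p = 0.0802) and without 971 (adjusted p = 0.107).

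Of the genes lower in striatal IP, Nrp2, a co-receptor for class 3 semaphorins, had the largest change, from 2.4 to 2.91 in hippocampal IP to 0.31 to 0.39 in striatal IP (log2 -1.4 ± 0.11, adjusted p = 4.83e-07). Its inputs lay at 2.24 to 3.46 and 0.14 to 0.364, so IP and input stood at like levels within each region. Nrp2 reached 1 FPKM in hippocampal libraries only, so the filter favoured a call in this direction. Epha5 read 9.02, 9.22, 9.24 and 9.31 in hippocampal IP and 4.33, 4.75, 5.01 and 4.43 in striatal IP, a wide gap for its small spread (log2 -0.86 ± 0.12, adjusted p = 0.000127), and 13, 12.6, 12.7 and 12.7 and 3.67, 4.38, 6.51 and 4.99 in the inputs. Sema6d, whose IP values are given above, was 1.67-fold lower in striatal IP by its means without overlap (log2 -0.71 ± 0.14, adjusted p = 0.00194) and did not pass between the inputs (-0.14 ± 0.14, adjusted p = 0.42).

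Slit1, a secreted repellent, read 15.2, 16, 15.4 and 15.7 in hippocampal input and 1.33, 0.704, 0.787 and 1.59 in striatal input, a 14.1-fold lower mean (log2 -3 ± 0.24, adjusted p = 4.92e-08). Its IPs read 1.94, 2.32, 5.39 and 4.94 in hippocampus, with 974 and 977 again the higher pair, and 1.62, 0.568, 1.4 and 1.01 in striatum. They did not overlap (log2 -1.06 ± 0.24, adjusted p = 0.00623), and the call was lost without 977 (adjusted p = 0.0884). Plxna1 read 9.98, 10, 9.27 and 9.62 in hippocampal IP and 6.75, 7.46, 4.47 and 5.59 in striatal IP (log2 -0.62 ± 0.17, adjusted p = 0.0261). Nrp1, a receptor for class 3 semaphorins and for VEGF, read 11.9, 15.6, 12.3 and 13.8 and then 10.2, 10.4, 5.13 and 8.92 (log2 -0.61 ± 0.17, adjusted p = 0.027). Neither Plxna1 nor Nrp1 overlapped between the IPs, yet both calls were lost without any 1 of the 4 animals (adjusted p 0.0617 to 0.116 for Plxna1 and 0.0546 to 0.123 for Nrp1).

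Plxnd1, the receptor of Sema3e, had the largest higher value in striatal input among the guidance genes with a mean of at least 5 in either input. It read 1.23, 1.39, 1.3 and 1.62 in hippocampal input and 6.49, 5.31, 2.7 and 6.84 in striatal input (log2 1.35 ± 0.2, adjusted p = 6.53e-05), with 974 the lowest of the latter and still above the hippocampal range. In the IPs Plxnd1 read 1.26, 1.69, 1.82 and 1.73 and then 2.38, 2.99, 4.23 and 3.85 (log2 0.72 ± 0.2, adjusted p = 0.0259). The ranges were apart, and the IP call was lost with no scaling and without 970, 971 or 977 (largest adjusted p = 0.14).

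**Figure D4:**
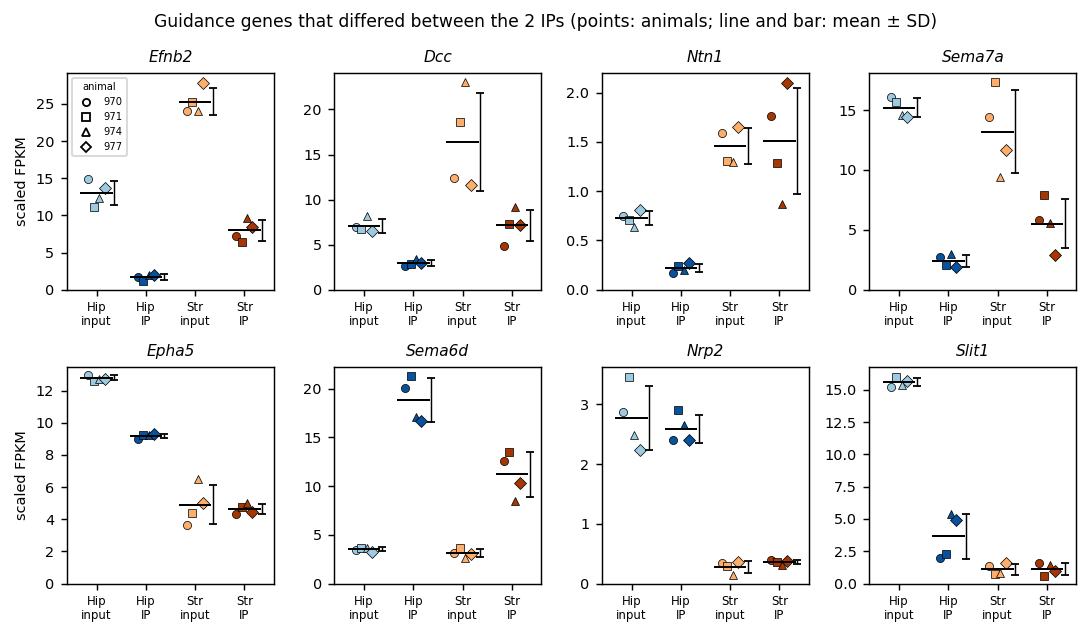
Scaled FPKM of 8 guidance genes that differed between the IPs, by group (Hip, hippocampus; Str, striatum), with 1 point per animal, the mean as a line and the SD as a bar. Efnb2, Dcc, Ntn1 and Sema7a are higher in striatal than in hippocampal IP, and Epha5, Sema6d, Nrp2 and Slit1 are lower. Sema6d is the only one of the 8 whose IP values exceed the input in both regions.

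The plot of these genes shows that for 7 of the 8 the IP lay at or under the level of its input in hippocampus, Nrp2 being the one whose 2 hippocampal groups overlapped.

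The third comparison is whether the change from input to IP itself differed between regions, as the striatal minus the hippocampal log2 fold change. It uses all 16 libraries and shares them with the comparisons above. The difference was higher for 17 of 60 guidance genes and lower for 3 (28.3% and 5%), against 8.47% and 5.33% of all genes (13.8% in either direction), so the share was above the background in the higher direction. Among the 50 genes at 1 FPKM in both an input and an IP it was higher for 13 and lower for 2 (26.0% and 4%), against 7.52% and 5.29% of such genes in all. The medians were 0.44 for the guidance genes and 0.09 over all genes. Without the striatal inputs of 971 and 974 the counts were 18 and 4, without 970 they were 11 and 3, and without 971 they were 10 and 2. With an animal term in the fit they were 19 and 5, and with median-of-ratios scaling 15 and 5, where the share of higher calls over all genes went from 61.4% to 47.7%. With no scaling that share was 72.2%.

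Of the 17 genes, 15 were lower in hippocampal IP than in its input, 15 were lower in striatal than in hippocampal input, and 12 did not pass between the 2 IPs. The difference is built from the same values, which favours the first 2 of these counts among genes picked by it. The same counts were not taken over all genes with a higher difference. Unc5a had the largest value (2.09 ± 0.46, adjusted p = 0.006), and its IP means were 5.33 ± 1.56 in hippocampus and 5.38 ± 2 in striatum against inputs of 40.8 ± 2.77 and 9.96 ± 5.29. It was 1.45 ± 0.32 (adjusted p = 0.00749) without the 2 shallow inputs, and the call was lost without 971 (adjusted p = 0.0991). Plxna1 (2.04 ± 0.25, adjusted p = 3.8e-05) read 18.5, 17.1, 16.9 and 18.2 in hippocampal input and 2.14, 1.61, 1.18 and 3.3 in striatal input, the former all above its IPs and the latter all below. Slit1 followed at 1.94 ± 0.33 (adjusted p = 0.000816). Nrp1 (1.76 ± 0.24, adjusted p = 0.000131) read 20, 19.4, 17.3 and 18.8 in hippocampal input and 3.18, 3.21, 3.02 and 2.11 in striatal input, and crossed its IPs in the same way as Plxna1. Within hippocampus Plxna1 and Nrp1 were lower in IP (log2 -0.8 ± 0.17 and -0.47 ± 0.17) and within striatum higher (1.24 ± 0.17 and 1.29 ± 0.17), the hippocampal call of Nrp1 being lost without 970, without 977 and with median-of-ratios scaling (adjusted p up to 0.137). Beside these members, 5 of 12 pan-neuronal markers and 6 of 9 hippocampal principal neuron markers also had a higher regional difference, and 8 of 9 striatal projection neuron markers a lower one.

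The 3 genes with a lower difference were Ephb1, Robo2 and Sema3a, each higher in striatal than in hippocampal input, which a lower difference favours by its definition. Robo2, a Slit receptor, read 12.1, 12.5, 13.1 and 12.4 in hippocampal input and 11.5, 11.2, 10.8 and 7.82 in IP, and in striatum 18.3, 24.5, 25.7 and 19.2 in input and 8.37, 8.07, 10.6 and 7.74 in IP. The striatal groups were far apart and the hippocampal ones close without overlap (regional difference -0.97 ± 0.2, adjusted p = 0.0032, and without 971 adjusted p = 0.0806). Ephb1 had a difference of -0.81 ± 0.16 (adjusted p = 0.00253), from a 4.52-fold higher IP mean in hippocampus and a 2.1-fold higher one in striatum.

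**Figure D5:**
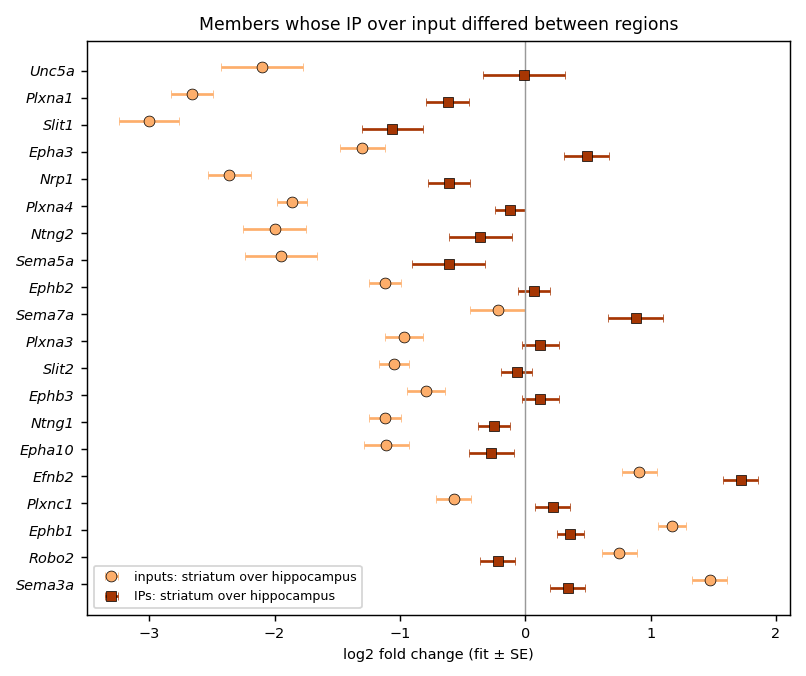
Log2 fold change of striatum over hippocampus with 1 SE, between inputs (circles) and between IPs (squares), for the 20 guidance genes whose IP over input differed between regions, ordered by that difference. For the upper 17 the input point lies to the left of the IP point, from -2.1 against -0.01 for Unc5a, and for Ephb1, Robo2 and Sema3a it lies to the right. These sides follow from the sign of the difference.

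The plot of these 20 genes shows IP points between -1.06 (Slit1) and 1.72 (Efnb2), and input points reaching -3.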

How the data were processed

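Per the submitters' processing notes, base calling used bcl2fastq 2.17, alignment STAR to mm10 and counting HTSeq. The authors deposited 1 table of FPKM per library. Per the labels' protocols, libraries were made from IP or input RNA with a kit that is not stated to mark strand. The same animals gave all 4 groups, so the labels pair the libraries: after removing group means, same-animal correlations across genes were 0.308 to 0.532 between the 2 IPs and -0.00816 to 0.319 for other pairs of groups. Between the 2 IPs, correlations of different animals reached 0.372, above the lowest same-animal value. The main fit held no animal term, which was added in 1 of the alternatives.

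FPKM was divided by a trimmed-mean factor (0.746 to 1.3, trimming 30% of log ratios and 5% of levels), and log2(value + 1) was the response in limma 3.58.1, run in R 4.3.3 (trended, robust variance, 4 groups, 12 residual degrees of freedom). Genes at or above 1 FPKM in 4 or more libraries were kept (13470), and p-values were adjusted over these by the Benjamini-Hochberg method. Coordinates are from GENCODE vM21, which held 94.7% of labels and all 72 guidance genes. Depth was estimated from the FPKM step of 1 read and transcript lengths.

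The guidance genes, the lists and the tests were chosen with earlier results of these data known. A further list, of proteases, was also tested and is not reported here. Genes given in every library were, per comparison and direction, the 4 called members with the largest change, the same sign in 4 animals and a mean scaled FPKM of 5 or more in a group compared. Ntn1, Nrp2, Slit2 and Ephb2, given by ranges, Slit3 in the IPs and Efna2 in the striatal inputs are shown outside that rule, chosen after their values were seen. The 13 alternatives changed scaling, pseudocount, filter, variance, the animal term or the libraries used. On data simulated for the comparison of the IPs with 12360 genes, 13.4% of 1.5-fold, 71.6% of 2-fold and 98.5% of 4-fold changes were called. The changed genes were drawn from those with a mean of at least 2 FPKM, with the same dispersion (0.05) for every gene. Apart from these changes all groups shared the same means, and no animal effect was simulated. The rates therefore do not cover the guidance genes under that level.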

Additional observations from a re-analysis of the deposited data

Results flagged for a closer look

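In a screen of 92 sets of 4 libraries (the guidance genes given in every library, in each group), 2 held a library far from the other 3, where chance gives about 1 in 20. Sema5a read 5.17 in the hippocampal IP of animal 974, against 3.17 to 3.26 in the others. Sema5a also read 2.61 in the striatal IP of animal 970, against 1.81 to 1.89 in the others.

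The change from input to IP differed between striatum and hippocampus for 20 guidance genes, by limma's test of the difference itself. Among receptors of semaphorins the log2 differences were 2.04 for Plxna1, 1.76 for Nrp1, 1.75 for Plxna4, 1.09 for Plxna3 and 0.8 for Plxnc1. Among Eph receptors they were 1.79 for Epha3, 1.19 for Ephb2, 0.91 for Ephb3, 0.85 for Epha10 and -0.81 for Ephb1, and for their ligand Efnb2 0.81. Among semaphorins they were 1.35 for Sema5a, 1.1 for Sema7a and -1.13 for Sema3a. Slits and Robos gave 1.94 for Slit1, 0.98 for Slit2 and -0.97 for Robo2, and netrin-Gs and netrin receptors 1.64 for Ntng2, 0.87 for Ntng1 and 2.09 for Unc5a. Of these 20 calls, 8 held under all alternatives tried. Ephb2, Slit2 and Sema3a reached 1 FPKM in 1 group of inputs only, the group in which each was high.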

How the results depend on the processing

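Of 171 calls of guidance genes over the 5 comparisons, 121 held under all of the 13 alternatives that tested the gene: 42 of 51 for hippocampal IP against input, 37 of 43 for striatal IP, 7 of 18 between the IPs, 27 of 39 between the inputs and 8 of 20 for the regional difference. One call changed sign in any of them, that of Robo1 in hippocampal IP with no scaling (-0.05). With all animals in the fit, counts that moved by more than 1.5 times were the genes lower in striatal than in hippocampal IP with no scaling (5, against 9) and those with a lower regional difference with median-of-ratios scaling (5, against 3) or the animal as a replicate block (5). The block moved no other count by that much. Leaving out 1 animal gave 4 to 8 higher and 3 to 6 lower genes between the IPs, and 10 to 16 higher and 2 to 4 lower for the regional difference, against 9, 9, 17 and 3 with all animals; of these, the moves past 1.5 times were the higher genes between the IPs without 970 or 971, the lower ones without 970, 971 or 977, and the higher regional difference without 970 or 971. For the other comparisons the ranges were 15 to 15 and 33 to 36 (hippocampal IP), 17 to 18 and 21 to 26 (striatal IP), and 7 to 10 and 23 to 27 (inputs), higher then lower. The causes were not tested. Depth was least in the striatal inputs, and calls of genes under about 1 FPKM there rest on few reads.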
